A study of Homo with 4 samples.

Results

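The baseline transcriptome of H1299 cells was described from the 2 control libraries of the series, of 4 libraries in all. H1299 cells are a long-established line derived from human non-small cell lung carcinoma. The series compared H1299 cells infected with lentivirus carrying a hairpin against IGF2BP3 (shIGF2BP3, n = 2) with cells carrying a control hairpin (shCtrl, n = 2), and the shIGF2BP3 libraries were not used here. The shCtrl libraries are labelled lung, epithelial cells and genotype WT, and are numbered biological replicates 1 and 2. The cells were grown in RPMI medium with fetal bovine serum and carry the control hairpin, so they are infected cells and not untouched parental cells. H1299 is a single tumour line, and nothing states whether the replicates came from separate infections, so the spread between them may be partly technical.

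A tumour line keeps part of the gene program of the cell it came from and drops the rest. Lung epithelium holds alveolar type 1 and type 2 cells, club, ciliated and basal cells and scattered neuroendocrine cells, each known by secreted proteins, keratins and transcription factors of its own. Carcinoma lines that have lost epithelial junctions and make vimentin are commonly called mesenchymal-like, and tumour cells often switch on genes that are otherwise restricted to the germ line or the fetus.

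Levels are given as FPKM (fragments per kilobase of transcript, scaled to library size), summed over the transcripts of a gene, so that genes can be compared per length. Of 20263 genes in the files, 18222 could be named by position. Of these, 10143 had an FPKM of at least 1 in both libraries, or 55.7%, and are called expressed here. A further 4449, or 24.4%, had 0 to 3 counts over both libraries and are called undetected. Of the undetected genes, 3980 had 0 counts. In library totals of 34652301 and 34817513 counts, the 3 counts that a count of 0 allows stand for 0.0866 and 0.0862 CPM (counts per 1000000 counts). Such limits cover counting error only. Among the named genes 1287 were high (FPKM of at least 50 in both libraries), 5339 moderate (at least 5) and 3517 low (at least 1). The remaining 3630 genes were at trace level, with more than 3 counts in all and an FPKM under 1 in at least 1 library. The median level was 2.13 over all named genes and 9.49 over the expressed genes.

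The libraries were close for most genes. Across the 18222 genes, Pearson's r between the libraries was 0.993 on log2(FPKM + 0.1). Genes are not independent replicates, so this describes the libraries only. Of 10413 genes with a mean FPKM of at least 1, 1137 differed by 1.5-fold or more, or 10.9%. Of these, 853 were lower and 284 higher in replicate 2, and the median gene fell by 0.14 on the log2 scale in replicate 2 relative to replicate 1. The split depends on scaling, at 1589 lower and 192 higher after rescaling both FPKM sums to the same total, and at 466 and 439 for CPM with TMM. Mitochondrially encoded genes took 16.2% of all FPKM in replicate 1 and 21.2% in replicate 2. Rescaled without these genes, 1055 genes were lower and 253 higher in replicate 2, with a median of -0.18. The counts of the libraries differed by more than sampling noise, with a chi-square per degree of freedom of 79.1 over 13353 genes. In bulk RNA, fewer cells that make a transcript and less of it per cell cannot be told apart.

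**Figure D1:**
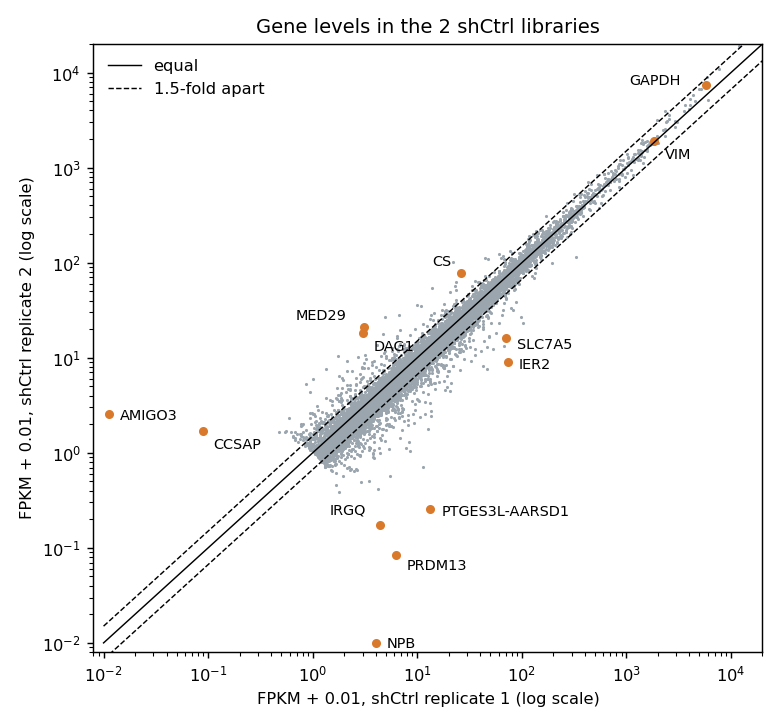
Each point is a named gene with a mean FPKM of at least 1, with its FPKM + 0.01 in shCtrl replicate 1 on the x axis and in replicate 2 on the y axis, both log scales. Dashed lines mark a 1.5-fold difference. Most genes lie between them, while labelled genes such as PRDM13 (6.21 and 0.0733) and AMIGO3 (0.0012 and 2.53) lie far outside.

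The most abundant nuclear transcripts came from general growth machinery. The 20 nuclear genes with the highest mean level held 11.6% and 12.2% of all FPKM, and 14 of the 20 code for ribosomal proteins. These were RPS18, RPL35, RPL41, RPS20, RPS24, RPS16, RPL7A, RPS12, RPL12, RPS27, RPL30, RPL7, RPL11 and RPS14. The other members were GAPDH and ENO1 of glycolysis, the actin-monomer binding protein TMSB10, the elongation factors EEF1A1 and EEF2, and the prolyl isomerase PPIA. GAPDH stood first, at 5708 in replicate 1 and 7343 in replicate 2. TMSB10 followed, at 5672 and 7234. Thymosin beta 10 held 95.2% and 96.4% of the thymosin beta family, with TMSB4X at 4.76% and 3.61% and TMSB15A and TMSB15B at 0.0202% or less. Of 89 genes picked by a symbol that begins as those of ribosomal proteins do, 87 were expressed, against 55.7% of all named genes. Together the 89 took 19.7% and 19.6% of all FPKM. A pick by symbol can also take in related genes that do not code for ribosomal proteins. The other two were the tissue-restricted copies RPL3L, at 0.296 and 0.0951, and RPL10L, with 0 counts.

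All 23 reference housekeeping genes were expressed, against 55.7% of all named genes. After GAPDH and EEF1A1 came PPIA, ACTB, RPLP0, RPL13A, TUBB, YWHAZ and PSMB4, the last at 397 and 429. VCP, PGK1, CHMP2A, B2M, SDHA, HPRT1, GUSB, TFRC, POLR2A, TBP and IPO8 lay lower. Of the 23 genes 3 differed by 1.5-fold or more between the libraries, against 10.9% of all named genes with a mean FPKM of at least 1. B2M, the light chain of class I antigen presentation, read 47.5 and 109. TFRC, the transferrin receptor, read 56.5 and 18.3. TBP, the TATA-binding protein, read 18.6 and 11.6.

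The label epithelial was met only in part. Of 40 epithelial genes 15, or 37.5%, were expressed, against 55.7% of all named genes. Their median was 0.438, against 2.13 over all named genes. Another 9 of the 40 were undetected, which is near the 24.4% of all named genes. The keratin pair KRT8 and KRT18 of simple epithelium was high. KRT18, the type I partner, reached 613 and 671, and KRT8, its type II partner, 401 and 447. Both lie side by side on chromosome 12 (GRCh38), KRT18 at 52948871-52952901, and their annotated spans overlap on opposite strands, so part of their reads may be shared. Next came the clathrin adaptor subunit AP1M2 at 15.5 and 15.2 and the tight-junction scaffold TJP1 at 15.7 and 11.8. CLDN1 (8.45 and 7.31), DSG2 (6.27 and 3.90), SPINT2 (4.53 and 5.29), PKP2 (5.11 and 3.59) and CGN (4.50 and 4.09) followed. They code for a claudin, a desmosomal cadherin, a protease inhibitor, a desmosomal plaque protein and a tight-junction plaque protein.

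Several defining genes of epithelium were at trace or at 0 counts. CDH1, which codes for E-cadherin, had 0 counts over 8 listed transcripts in both libraries. EPCAM read 0.028 and 0.157, and KRT19 0.105 and 0.0898. The transcription factors GRHL2, OVOL1, OVOL2 and EHF, which hold the epithelial program, also had 0 counts, as did PRSS8, MARVELD3 and LAD1. ST14, the protease matriptase, read 0.0137 and 0, and ELF3, another epithelial factor, 0.021 and 0.0098. The epithelial splicing regulator ESRP1 stood at 0.121 and 0.116.

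Of 42 mesenchymal genes 27, or 64.3%, were expressed, against 55.7% of all named genes. Their median was 4.86, against 2.13 over all named genes. VIM, the intermediate filament vimentin, reached 1828 and 1921 and ranked 21 among nuclear genes. The galectin LGALS1 was at 1452 and 1831. TPM2 (257 and 283) and TPM1 (138 and 144) code for tropomyosins. CCN1, a matricellular protein, read 228 and 211, and the receptor kinase AXL 198 and 171. NT5E, the CD73 nucleotidase, read 150 and 117, the hyaluronan receptor CD44 104 and 89.2, TGFBI 80.0 and 73.1, and the lysyl oxidase LOXL2 51.5 and 53.3. All 10 were high in both libraries.

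Collagen genes of the list were split. The collagen VI chains COL6A2 (12.2 and 13.5) and COL6A1 (4.70 and 5.64), named after their values were seen, were expressed, while COL3A1 and COL4A1 had 0 counts. COL1A2 read 0 and 0.009, COL4A2 0.0077 and 0.0078, COL5A1 0.0126 and 0.0184, POSTN 0.0144 and 0.0218, and COL1A1 0.0802 and 0.0403. The cadherin CDH11, the surface protein THY1 and the calcium-binding protein S100A6 also had 0 counts. Among the classical cadherins CDH2, coding for N-cadherin, held 99.3% and 97.1% of the family, at 8.02 and 6.28. CDH4 held 0.749% and 1.19%, CDH3 0% and 1.67%, and CDH1 and CDH11 none. Among transcription factors of the list, TWIST1 read 9.96 and 8.71 and ZEB1 2.56 and 1.82, both picked after their values were seen. The list also holds SNAI1, SNAI2, TWIST2, ZEB2, PRRX1 and TCF4, which are not reported here, so the factors are not described as a class.

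Markers of mature lung cell types differed by list. All 12 club and secretory genes had 0 counts, against 21.8% of all named genes. These were SCGB1A1, SCGB3A1, SCGB3A2, BPIFA1, BPIFB1, MUC5AC, MUC5B, CYP2F1, SLPI, WFDC2, PIGR and LCN2. None of 9 ciliated genes was expressed, against 55.7% of all named genes. TPPP3 was the highest of them, at 0.404 and 0.377, followed by the axonemal genes DNAH5, HYDIN, CFAP43 and DNAI1 and by FOXJ1, the ciliogenesis factor, at 0.0737 and 0. RSPH1, TEKT1 and SNTN had 0 counts.

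Against 55.7% of all named genes, 3 of 11 alveolar type 2 genes, or 27.3%, were expressed. These were the factor ETV5 (14.6 and 13), LPCAT1 (11.5 and 9.23), an enzyme of surfactant lipid synthesis, and the lipid transporter ABCA3 (10.5 and 9.49). The surfactant protein genes SFTPA1, SFTPA2, SFTPB and SFTPD and the phosphate transporter SLC34A2 had 0 counts. NKX2-1, the lung lineage factor, read 0 and 0.0562, LAMP3 0.608 and 0.491, and NAPSA 0.212 and 0.233.

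Of 10 alveolar type 1 genes 5, or 50%, were expressed, near the 55.7% of all named genes. The caveolins led, with CAV1 at 112 and 95.6 and CAV2 at 36.8 and 29.7. AGER (3.25 and 3.45), RTKN2 (2.51 and 1.80) and EMP2 (1.94 and 1.94) were low. HOPX and AQP4 were at trace level, while PDPN, AQP5 and CLIC5 had 0 counts.

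Of 18 basal and squamous genes 5, or 27.8%, were expressed, against 55.7% of all named genes, while TP63 and KRT5 had 0 counts. PERP (19.5 and 14.2), a desmosome-associated protein, the integrin chains ITGB4 (10.9 and 15.1) and ITGA6 (15.5 and 7.29), S100A2 (9.43 and 8.33) and KRT15 (6.04 and 7.68) were moderate. The squamous factor TP63 had 12 listed transcripts, all at 0, and 0 counts were also found for KRT6A, KRT6B, KRT13, KRT14, KRT17, DSC3, PKP1 and TRIM29. SOX2, NGFR and DSG3 were at 0.648 or less. Among 10 keratins KRT18 held 59.9% and 59.4% of FPKM, KRT8 39.2% and 39.6%, KRT15 0.591% and 0.680%, KRT7 0.344% and 0.328% and KRT19 0.0103% and 0.0080%, with KRT5, KRT6A, KRT14, KRT17 and KRT20 at 0.

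Neuroendocrine genes were split. Of 27 genes 11, or 40.7%, were expressed, against 55.7% of all named genes. Their median was 0.127, against 2.13 over all named genes. UCHL1, a neuronal deubiquitinase, read 705 and 760 and ranked 100 among nuclear genes. STMN1, a tubulin-binding protein also high in dividing cells, read 202 and 172. The peptide gene NMB (18.4 and 17.7), neuronal enolase ENO2 (7.99 and 12.6), the granins SCG2 (6.15 and 6.92) and CHGB (6.30 and 6.21), the Notch ligand DLL3 (5.29 and 5.63), synaptophysin SYP (2.38 and 2.81), MAP1B (2.17 and 1.91) and SYT1 (1.24 and 1.77) followed. The lineage factor INSM1 had 0 counts, and so did GRP, DDC, CALCA, STMN2 and ELAVL4. POU2F3, NEFM and NCAM1 were at 0.0463 or less.

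Markers of other cell types were near 0. Of 28 genes for blood, endothelial, stromal, muscle, glial, liver and pigment cells only the lysosomal protein CD68 was expressed, at 22.7 and 20.9. That is 3.57% of the list, against 55.7% of all named genes. The summed level of the list was 24.1 and 22.7. ITGAM (0.510 and 0.406), HBA1, CD79A, OLIG2, LYZ, CD14, DCN and KDR followed, all under 1. PTPRC, the pan-leukocyte gene, and CD3E, LUM, HBB, TEK, PPBP, ALB, DES, GFAP and TYR had 0 counts.

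**Figure D2:**
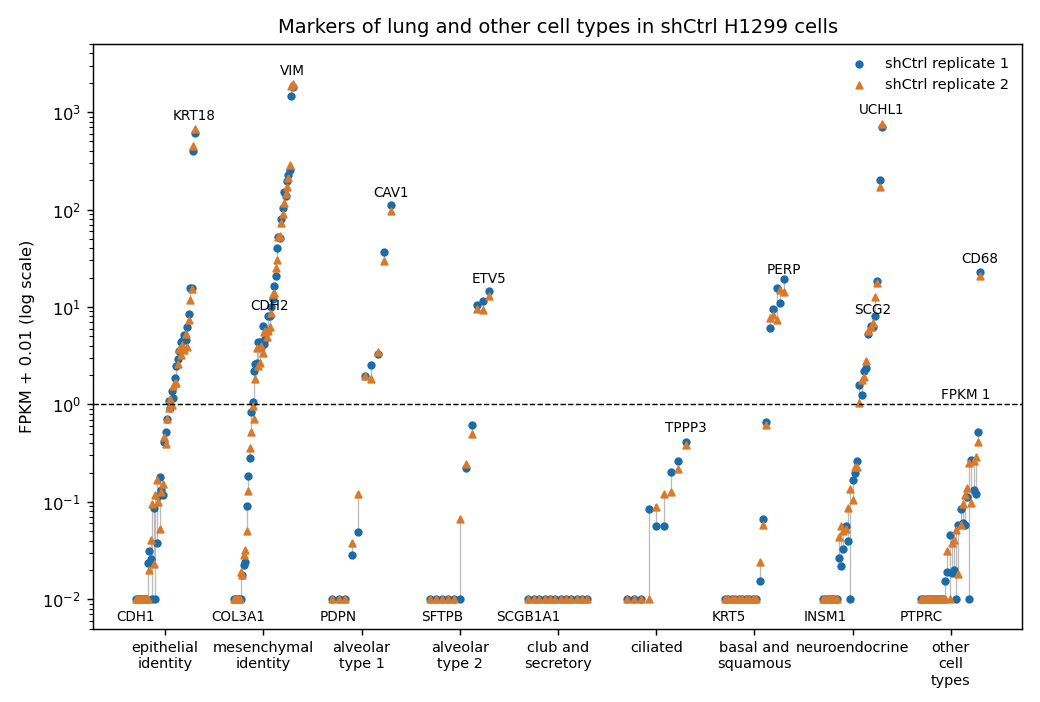
Each column is a list of marker genes ordered by mean level, with FPKM + 0.01 on a log axis; circles are shCtrl replicate 1, triangles replicate 2, and a grey line joins the libraries. VIM tops the mesenchymal column at 1828 and 1921, all club and secretory genes lie at 0, and CDH1, SFTPB, KRT5 and INSM1 lie at 0 with other genes of their columns.

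Of 48 transcription factors of lung and foregut 20, or 41.7%, were expressed, against 55.7% of all named genes. The inhibitors of differentiation ID1 (376 and 397) and ID3 (169 and 179) were far above the rest, and ID2 read 13.2 and 25.5. SOX9, a factor of the distal embryonic lung, was at 15.2 and 13.5. The ETS factors ETV5 (14.6 and 13) and ETV4 (11 and 10.6), which respond to FGF and MAPK signals, stood beside CEBPB (9.64 and 9.91), MEIS2 (7.16 and 6.09), GATA6 (5.21 and 4.25) and KLF4 (4.26 and 3.51). HNF4A, FOXF1, TBX4, TBX5, EYA2 and HAND1 had 0 counts. SOX21 (0.0175 and 0.0175) and CDX2 (0.0240 and 0.0239) were at trace.

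HOX genes, whose position in 4 clusters follows their order of use along the body axis, differed in level by cluster, from 9 of 10 genes expressed in HOXB to 1 of 7 in HOXD. Of 36 named HOX genes 21, or 58.3%, were expressed, near the 55.7% of all named genes. HOXB, on chromosome 17, had a sum of 152 and 144. HOXB2 (55.8 and 47.9) and HOXB7 (43.3 and 45.0) led, followed by HOXB4 (19.4 and 19.1), HOXB9 (11.2 and 10.8) and HOXB3 (10.3 and 8.77). In HOXA, on chromosome 7, 5 of 11 were expressed, led by HOXA7 (17.3 and 17.5) and HOXA9 (8.51 and 9.11). In HOXC, on chromosome 12, 6 of 8 were expressed, led by HOXC8 (12.4 and 11.3), HOXC10 (11.7 and 10.5) and HOXC9 (7.88 and 7.5). In HOXD, on chromosome 2, only HOXD9 of 7 was expressed, at 2.72 and 2.62, and the cluster summed to 4.31 and 3.69.

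By position in the clusters, paralogs 4 to 10 were expressed in 16 of 21 cases, against 55.7% of all named genes. They summed to 163 and 167, of which the HOXB cluster gave 84.1 and 86.1. Paralogs 1 to 3 were expressed in 3 of 8 and summed to 69.9 and 59.6, of which HOXB gave 66.1 and 56.7, most of it HOXB2. Paralogs 11 to 13 were expressed in 2 of 7 and summed to 4.19 and 3.73. HOXB1, HOXD10 and HOXD12 had 0 counts, and HOXC12 (0 and 0.0292), HOXC11 (0.0258 and 0.0299), HOXD3 (0 and 0.0734), HOXD4, HOXD1, HOXA2 and HOXA13 were at trace. HOXA4 was unequal between the libraries, at 1.90 and 6.14, and its span overlaps another gene on the same strand. Spans also overlap for HOXB4 with HOXB3, for HOXC4, HOXC8 and HOXC9 with HOXC6, and for HOXD4 with HOXD3. HOXB4 (19.4 and 19.1), HOXC4 (6.88 and 6.42), HOXC8 (12.4 and 11.3) and HOXC9 (7.88 and 7.5) were near equal. HOXD4, at 0.0856 and 0.0501, was too low to compare. Whether overlap bears on the difference in HOXA4 was not tested.

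**Figure D3:**
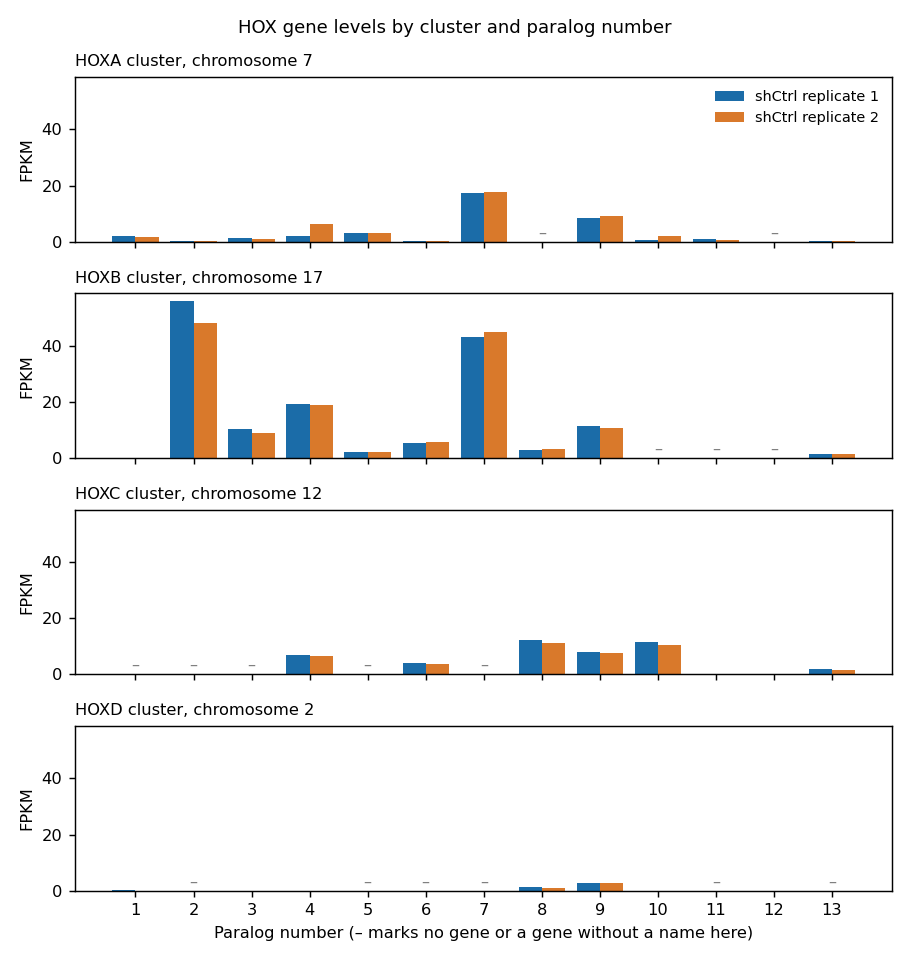
Bars give FPKM of each named HOX gene in shCtrl replicate 1 and replicate 2, by paralog number on the x axis, with 1 panel per cluster on a shared linear axis from 0. HOXB2 (55.8 and 47.9) and HOXB7 (43.3 and 45.0) stand highest, and HOXD9, the highest HOXD gene, reads 2.72 and 2.62.

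Of 51 receptor tyrosine kinases 16, or 31.4%, were expressed, against 55.7% of all named genes. Their median was 0.0992, against 2.13 over all named genes. AXL (198 and 171) and the ephrin receptor EPHA2 (69.0 and 66.4) were high. EPHB4 (21.3 and 18.9), the Wnt co-receptor RYK (15.5 and 14.3), FGFR1 (11.2 and 17.0), the HGF receptor MET (13.9 and 11.7), the collagen receptor DDR1 (8.02 and 10.0), ERBB2 (7.56 and 7.87), EGFR (5.68 and 5.24) and MERTK (5.22 and 4.39) completed the 10 highest. In the ERBB family ERBB2 held 51.0% and 54.7% of FPKM, EGFR 38.3% and 36.5%, ERBB3 10.7% and 8.78% and ERBB4 0.101% and 0.0279%. Among FGF receptors FGFR1 held 73.8% and 81.6%, FGFR4 22.0% and 15.9%, FGFR3 4.03% and 2.54% and FGFR2 0.177% and 0%. The kinases targeted after gene fusion in lung cancer, ALK, ROS1, RET and NTRK2, had 0 counts, and so did KIT, INSRR, EPHB1, EPHB6, TEK and MUSK.

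Of 62 growth factors and cytokines 30, or 48.4%, were expressed, 21 of them low, against 55.7% of all named genes. MIF, a cytokine that most dividing cells make, read 460 and 677. The chemokine CXCL2 (145 and 155), TGFB1 (145 and 147), the progranulin gene GRN (73.5 and 70.5) and the heparin-binding factor MDK (55.5 and 69.8) were high. VEGFB (24.0 and 27.4), NMB, the Wnt inhibitor DKK1 (15.3 and 13.2), FGF5 (7.85 and 5.89) and PDGFC (5.76 and 2.83) followed. IL6, IL1B, CXCL8, CXCL5, CXCL10, CSF2, CSF3, HGF, IGF1 and EREG had 0 counts. MET was thus expressed while HGF, its ligand, was undetected.

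Of 73 genes of RAS, PI3K and cell-cycle signalling 63, or 86.3%, were expressed, against 55.7% of all named genes. FOSL1, an AP-1 subunit induced by MAPK signalling, was highest at 357 and 436. MAP2K2 (165 and 183), RHEB (130 and 103), the mitotic kinases PLK1 (93.2 and 88.8) and AURKA (93.6 and 80.8), CDK4 (84.4 and 80.7), RRAS (58.3 and 69.7), TEAD4 (56.6 and 59.1), HRAS (53.9 and 60.0) and the survival gene BCL2L1 (56.8 and 53.7) made up the 10 highest. MYCN had 0 counts. GLI2 (0.0192 and 0.0559), MYCL, NOTCH4, CCND2 (0.230 and 0.0961), BCL2, NOTCH3, NOTCH1, TERT (0.810 and 0.781) and GLI1 were the other lowest members.

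Among small GTPases and kinases of growth signalling HRAS stood at 53.9 and 60.0 and NRAS at 21.9 and 15.1. ARAF read 10.6 and 9.69 and BRAF 2.83 and 2.37. AKT1 and AKT2 were near each other, AKT1 at 48.6 and 45.5 and AKT2 at 40.3 and 41.2. CCND1 held 59.6% and 56.3% of the D cyclins and CCND3 40.1% and 43.6%. MYC held 96.7% and 99.0% of its family, with MYCL at 3.28% and 0.971%, but its own level was low in replicate 1 at 2.97 and moderate in replicate 2 at 7.99. Family shares are per length. By counts, which do not correct for length, IGF2BP1, SMARCA4, EGFR and BCAT1 led their families.

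Of 88 tumour suppressors 65, or 73.9%, were expressed, against 55.7% of all named genes. The highest were the succinate dehydrogenase subunit SDHB (149 and 145), GSTP1 (135 and 156), CDKN2A (88.0 and 102), the SWI/SNF core subunit SMARCB1 (76.1 and 86.3), fumarase FH (48.0 and 42.9), the NRF2 adaptor KEAP1 (47.7 and 38.8), the CDK inhibitor CDKN2C (33.2 and 37.7), SMAD3 (34.5 and 29.8), RBM10 (27.6 and 30.3) and the kinase STK11 (25.7 and 28.0). DAPK1 and TP63 had 0 counts. CSMD3, PTPRD, DLEC1, CADM1, CDH13, LRP1B, RARB and SEMA3B were at 0.322 or less. In the retinoblastoma family RB1 (9.65 and 6.97) held 49.0% and 45.4%, RBL2 32.5% and 36.1% and RBL1 18.5% and 18.5%.

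CDKN2A codes for p16INK4a and, from a separate first exon further upstream, for p14ARF. The gene lies on the minus strand of chromosome 9 at 21967753-21995301. Transcripts starting at 21994411-21994624 held 87.1% of its FPKM in replicate 1 and 52.3% in replicate 2. A group starting further upstream, at 21995269-21995301, held 3.82% and 24.7%. The group starting at 21974827-21975098 held 4.44% and 19.7%, or 3.91 and 20.2 in FPKM. The upstream starts thus carried most of the level in both libraries, at 80.0 and 78.9 in sum, and the downstream start differed 5.16-fold between them.

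Of 49 oncofetal genes 16, or 32.7%, were expressed, against 55.7% of all named genes, and some were high. Another 20 were undetected, against 24.4% of all named genes. HMGA1 (620 and 653) and HMGA2 (150 and 128), chromatin architectural proteins of embryonic cells, led. The IGF2 mRNA-binding proteins IGF2BP2 (19.5 and 16), IGF2BP1 (13.7 and 11.2) and IGF2BP3 (9.71 and 6.93) were all moderate, at 45.4% and 46.9%, 32.0% and 32.7%, and 22.6% and 20.4% of their family. BMI1 (12.3 and 8.87), CRABP2 (9.29 and 9.75), TPBG (10.3 and 8.61), LIN28B (11.1 and 7.77), which blocks let-7 maturation, and GPC1 (3.69 and 9.12) closed the 10 highest. LIN28A, its paralog, read 0.0073 and 0.0242. AFP, GPC3, NANOG, SALL1, DLK1, PSG1, CEACAM5, PROM1, ALDH1A1 and CGA had 0 counts. HMGA2 and LIN28B were thus expressed without NANOG or AFP.

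Most cancer-testis antigens were either well expressed or at 0. Of 95 genes 29, or 30.5%, were expressed, 13 of them high, against 55.7% of all named genes. Another 51 had 0 counts, against 21.8% of all named genes. On the X chromosome 22 of 66 genes were expressed, with a sum of 3375 and 3599. On autosomes 7 of 29 were, with a sum of 174 and 158. Most of the list lies on X, so these counts and sums compare groups of unlike size. GAGE2A (898 and 839), XAGE1A (368 and 525), XAGE1B (351 and 531), MAGEA4 (451 and 357), GAGE1 (389 and 387), GAGE12J (235 and 264), PRAME (112 and 101), CTAG1B (86.9 and 110), CTAG1A (81.9 and 108) and CSAG1 (80.1 and 86.1) were the 10 highest of the list. PRAME, on chromosome 22, is a repressor of retinoic acid signalling.

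Many of these antigens are near-identical copies, so levels of single copies are uncertain and sums are safer. These sums cover every named copy, also those outside the list, which holds 4 of 11 GAGE genes with a sum of 1608 and 1568. All 11 named GAGE genes were expressed, with a sum of 3553 and 3781, so the X total above leaves out part of this group. Outside the list GAGE12G alone read 739 and 888. The XAGE1 copies summed to 719 and 1056, and the CTAG1 copies, which code for NY-ESO-1, to 169 and 219. Of 12 MAGEA genes 8 were expressed, against 55.7% of all named genes, with a sum of 685 and 538. Other groups of the same kind were not expressed, with 0 of 11 MAGEB, 0 of 3 MAGEC, 0 of 8 SSX and 0 of 10 SPANX genes above the threshold. Among the 0-count genes were MAGEC1, MAGEC2, MAGEB1, SSX1, SSX2, SPANXC, SAGE1, CT83, DAZL and BRDT.

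Of 48 surface and drug-target antigens 26, or 54.2%, were expressed, near the 55.7% of all named genes. The immunoglobulin-family protein BSG (798 and 918), the tetraspanins CD63 (338 and 369), CD151 (174 and 175) and CD9 (120 and 113), AXL, NECTIN2 (110 and 134), the amino acid transporter chain SLC3A2 (111 and 106), CD44, EPHA2 and SLC7A5 (70.4 and 16) headed the list. SLC7A5 codes for the light chain that pairs with SLC3A2. It was lower in replicate 2 by 2.13 on the log2 scale, while SLC3A2 was nearly equal in the libraries. VTCN1, CEACAM5, NECTIN4, FOLR1, MUC16, SLC34A2, PROM1 and ENPP3 had 0 counts, and NCAM1 was at trace.

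Of 47 nuclear receptors 20, or 42.6%, were expressed, against 55.7% of all named genes, and none was high. NR1H2 (26.1 and 30.8), the oxysterol receptor LXR beta, NR2F6 (26.9 and 28.4), NR2F2 (23.6 and 18.0), ESRRA (12.2 and 8.92), RXRB (11.4 and 8.80), RARG (8.49 and 7.41), VDR (8.15 and 6.82), NR2C1 (6.16 and 8.67), NR1H3 (5.82 and 6.42) and the glucocorticoid receptor NR3C1 (5.72 and 4.68) led. The oestrogen receptor ESR1 had 0 counts, as did RXRG, NR1I2, NR5A1, ESRRB and HNF4A. THRB (0.0065 and 0) and PGR (0.0069 and 0.0164) were the next lowest.

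Of 58 chromatin regulators 52, or 89.7%, were expressed, against 55.7% of all named genes. SMARCB1, HDAC1 (78.9 and 63.2), DNMT1 (60.7 and 60.7), ACTL6A (59.5 and 51.8), BRD2 (45.0 and 48.7), UHRF1 (45.5 and 38.8), KDM1A (36.4 and 31.2), HDAC2 (48.4 and 16.5), HDAC3 (32.2 and 32.2) and SMARCD1 (46.4 and 12.8) were the highest. The germ-line and neuronal members DNMT3L, BRDT and ACTL6B had 0 counts, and TET1 (0.480 and 0.317), TET2, KDM6B, HDAC4, TET3, EP300 and KDM5B were the other low members. The SWI/SNF ATPases were near equal, with SMARCA2 at 57.0% and 46.1% and SMARCA4 at 43.0% and 53.9%, so the leading member changed between the libraries. EZH2 held 88.7% and 89.0% against EZH1. DNMT3A held 67.4% and 53.6% and DNMT3B 32.6% and 46.4% of the de novo methyltransferases.

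FPKM of the enolase, phosphoglycerate kinase and pyruvate kinase families came almost wholly from 1 gene each, while other families of glucose metabolism were split. Of 61 glucose metabolism genes 37, or 60.7%, were expressed, 13 of them high, near the 55.7% of all named genes. GAPDH, ENO1 (2023 and 1818), PKM (1025 and 1072), TPI1 (978 and 1014), LDHB (846 and 621), PGAM1 (344 and 292), LDHA (227 and 180), GPI (208 and 153), PGD (155 and 153) and PGK1 (161 and 130) led. HK1 stood at 20.3 and 19.1 and HK2 at 5.08 and 3.68, while HKDC1 was at trace and HK3 had 0 counts. PFKP held 60.7% and 60.2% of phosphofructokinase, PFKM 23.5% and 22.7% and PFKL 15.8% and 17.1%. ENO1 held 99.4% and 98.9% of enolase over ENO2 and ENO3. PGK1 and PKM held their families alone, with PGK2 and PKLR at 0 counts.

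Most FPKM of the lactate dehydrogenase family came from LDHB, the gene of its B subunit, and protein was not measured. LDHB held 78.8% and 77.5%, LDHA 21.1% and 22.5%, and the testis form LDHC 0.0207% or less. SLC2A1 held 62.3% and 66.5% of the glucose transporters and SLC2A3 36.8% and 32.6%, with SLC2A4 at 0.885% and 0.865% and SLC2A2 at 0 counts. PYGB held 64.9% and 62.2% of glycogen phosphorylase and PYGL 35.1% and 37.8%, over PYGM. Gluconeogenesis enzymes of liver, PCK1, G6PC1 and FBP1, had 0 counts, while the mitochondrial PCK2 was at 7.15 and 7.20. SLC16A1 (18.2 and 13.6), ALDOC (0.745 and 0.809), SLC16A4, SLC16A7 and PGAM2 (all 0) belong to families of which another member could not be named, so no shares are given.

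**Figure D4:**
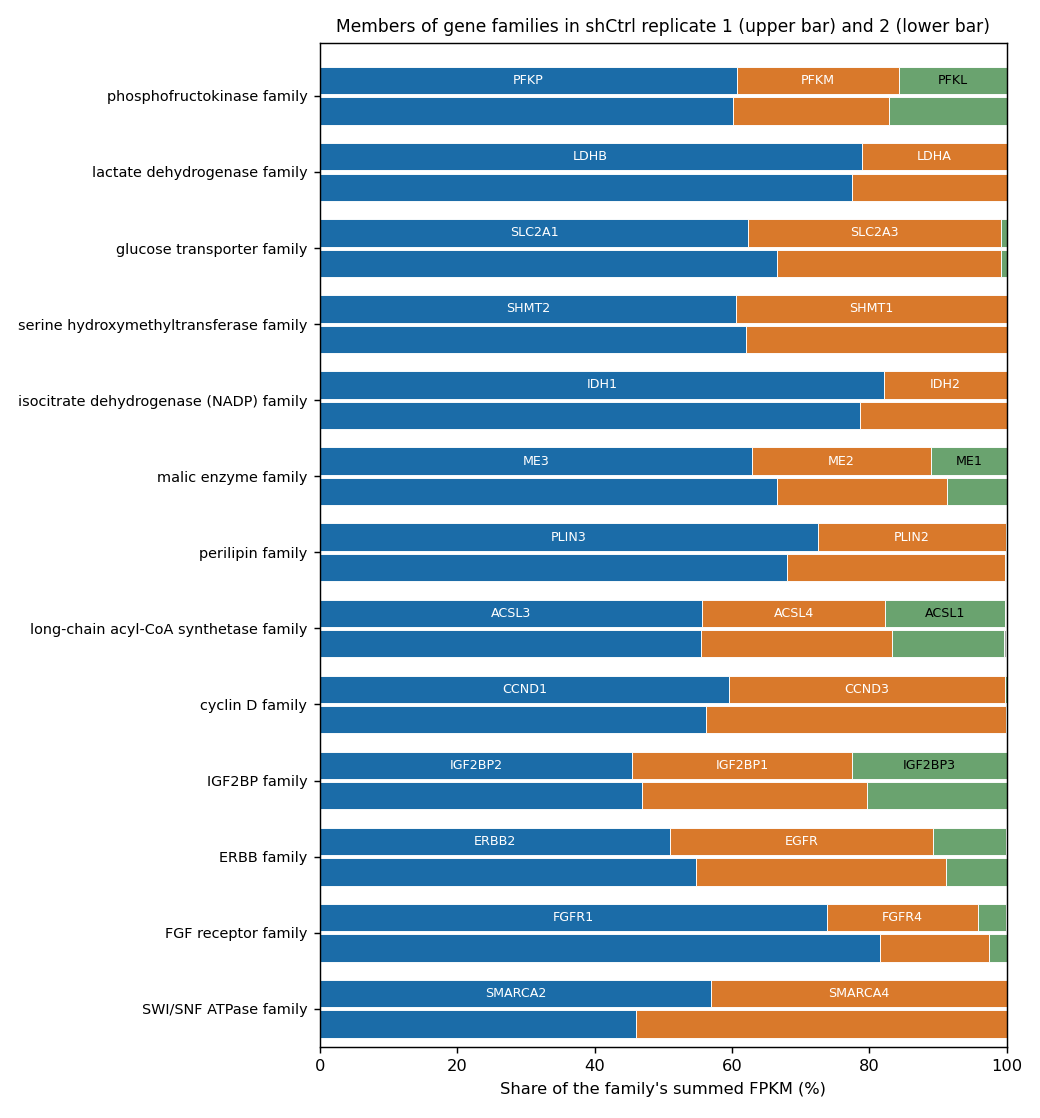
Each pair of stacked bars splits the summed FPKM of a gene family among its members, for shCtrl replicate 1 (upper bar) and replicate 2 (lower bar), from 0 to 100%; colours follow the order of the mean level and names mark larger members. LDHB takes 78.8% and 77.5% of lactate dehydrogenase, CCND1 59.6% and 56.3% of the D cyclins, and the order of SMARCA2 and SMARCA4 changes between the bars.

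Of 70 lipid metabolism genes 43, or 61.4%, were expressed, near the 55.7% of all named genes. The carrier FABP5 (298 and 303), the desaturase SCD (159 and 131), SREBF1 (98.1 and 106), the master factor of lipogenesis, ACADVL (72.5 and 84.7) of fatty acid oxidation, ELOVL1 (70.0 and 64.7), the lipid droplet coat PLIN3 (73.7 and 52.0), APOE (49.4 and 58.1), ELOVL5 (56.2 and 38.4) and fatty acid synthase FASN (34.4 and 33.0) led. SCD held 98.1% and 98.0% over SCD5. ACACA held 95.8% and 91.8% of acetyl-CoA carboxylase over ACACB. ACSL3 held 55.7% and 55.4% of the acyl-CoA synthetases, ACSL4 26.6% and 27.8%, ACSL1 17.5% and 16.3%, and ACSL5 and ACSL6 0.354% or less. PLIN3 held 72.5% and 68.1% of the perilipins and PLIN2 27.3% and 31.7%, with PLIN1, PLIN4 and PLIN5 at 0.116% or less. The fatty acid importer CD36 and the lipase LPL had 0 counts, as did FABP1, FABP2, FABP4, MOGAT1, MOGAT2, THRSP and ACSS1. CPT1A stood at 12.2 and 9.09 and CPT1C at 0 counts, and FABP3 and FABP6 were at trace.

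Of 71 genes of amino acid, one-carbon and nucleotide metabolism 56, or 78.9%, were expressed, against 55.7% of all named genes. Their median was 17.0. The purine salvage enzyme APRT (197 and 224), IMPDH2 (186 and 168), ornithine decarboxylase ODC1 (167 and 127), thymidylate synthase TYMS (149 and 135), SLC3A2, the glutamine carrier SLC1A5 (103 and 104), TK1 (98.5 and 96.5), MTHFD1 (87.0 and 75.5), PSAT1 (91.8 and 60.6) of serine synthesis and GOT2 (73.8 and 68.3) led. SHMT2 held 60.6% and 62.0% and SHMT1 39.4% and 38%. MAT2A held 99.9% and 99.9% over the liver form MAT1A. BCAT2 held 72.5% and 83.0% over BCAT1, but 39.6% by counts. OTC, PRODH and IDO1 had 0 counts, and TDO2, ARG1, NNMT, CPS1 and GPT were at 0.199 or less.

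The TCA cycle was expressed almost in full, at 36 of 38 genes, or 94.7%, against 55.7% of all named genes. Its median was 23.9. MDH2 (307 and 296), SDHB, MDH1 (135 and 89.0), IDH3B (105 and 108), the citrate carrier SLC25A1 (83.9 and 84.4), SDHD (90.0 and 69.4), SUCLG1 (74.3 and 73.4), SDHA (60.7 and 55.6), citrate synthase CS (26.5 and 78.1) and DLST (54.4 and 45.6) led. The exceptions were PDK4 at 0.0626 and 0.0597 and the testis gene PDHA2 at 0 counts. IDH1 held 82.1% and 78.6% of the NADP-dependent isocitrate dehydrogenases over IDH2. ME3 held 62.9% and 66.5% of malic enzyme, ME2 26.1% and 24.8% and ME1 11% and 8.72%, while by counts ME3 held 45.9%. PDK2 (13.7 and 14.8) was above PDK3 (2.21 and 1.52). MDH1B, OGDHL, PC, ME1, IDH2 and ACO1 were the other low members, at 5.24 or less.

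Of 77 redox and xenobiotic genes 42, or 54.5%, were expressed, 15 of them high, near the 55.7% of all named genes. The metallothionein MT2A (731 and 798), the peroxiredoxins PRDX1 (442 and 369), PRDX5 (224 and 268), PRDX6 (142 and 141) and PRDX4 (145 and 133), thioredoxin TXN (340 and 353), the lipid peroxide reductase GPX4 (302 and 364), SOD1 (256 and 273), GSTO1 (158 and 147) and GSTP1 led. Of 8 MT1 metallothioneins, a group formed after the values were seen, only MT1X was expressed, at 76.2 and 64.5, and the other 7 had 0 counts. GPX1 (0.106 and 0.291) and PRDX2 (0.0890 and 0.0165), abundant enzymes in many cell types, were at trace beside their high relatives. Among aldo-keto reductases of the AKR1C family AKR1C2 read 0.508 and 0.949, AKR1C1 0.313 and 0.199, AKR1C3 0.0787 and 0.151 and AKR1C4 0. ALDH1A1, ALDH3A1, AKR1B10, GSTA1, CYP3A4, CYP2E1, CYP1A2, UGT1A1 and UGT2B7 had 0 counts.

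Most genes were read mainly from 1 transcript. Of 9303 genes with at least 2 listed transcripts and a mean FPKM of at least 1, the leading transcript held at least 50% of the gene's mean FPKM in 7118, or 76.5%. The median share of the leading transcript was 74.2% in replicate 1 and 75.6% in replicate 2. The same transcript led in both libraries in 7148 genes, or 76.8%. Where it was the same, 8.76% of genes differed by 1.5-fold or more between the libraries in their gene level, and where it was not, 20.4% of 2155 genes did.

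Transcripts of a gene were also grouped by start, joining those whose next start lay within 500 bases. For 6469 genes with at least 2 such groups, the same group led in both libraries in 89.9% and the same transcript in 73.9%. Groups are fewer than transcripts, which by itself raises the first share. The leading group held a median of 93.2% and 93.4% of the gene's FPKM.

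Several genes named above had 1 dominant transcript in both libraries. ENST00000301178 held 96.1% and 96.6% of AXL. ENST00000234590 held 99.1% and 99.2% of ENO1. For KRT18, ENST00000388835 held 94.1% and 92.4%. For PKM, ENST00000567118 (chromosome 15, 72199105-72231190, minus strand) held 83.9% and 90.0%. VIM was led by ENST00000544301 (chromosome 10, 17228259-17237592, plus strand), at 85.9% and 81.9%, and a second group starting at 17230004 held 9.20% and 8.61%. ENST00000403681 held 84.7% and 77.4% of HMGA2, and ENST00000258729 82.7% and 84.7% of IGF2BP3.

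In other genes the leading transcript differed between the libraries. CDH2 was read as ENST00000269141, from the start at 28177446 on chromosome 18, at 98.1% in replicate 1 and 11.9% in replicate 2. In replicate 2 ENST00000399380, starting at 28036585, held 85.9%, and in replicate 1 it held 0%. CAV1 was read mainly from starts at 116525740-116526293 on chromosome 7 in replicate 1 (88.5%) and from starts at 116524785-116525009 in replicate 2 (81.1%). For MAGEA4, ENST00000393920 held 58.1% and 6.03% and ENST00000360243 5.73% and 60.0%. FASN was led by ENST00000634990 in replicate 1 (58.3%, then 0%) and by ENST00000306749 in replicate 2 (37.9%, then 98.3%), with both starting in the same group. NQO1 had ENST00000564043 at 14.2% and 61.9%. The gene levels of CDH2, CAV1, MAGEA4, FASN and NQO1 differed far less than these shares, at 115 and 157 for NQO1.

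**Figure D5:**
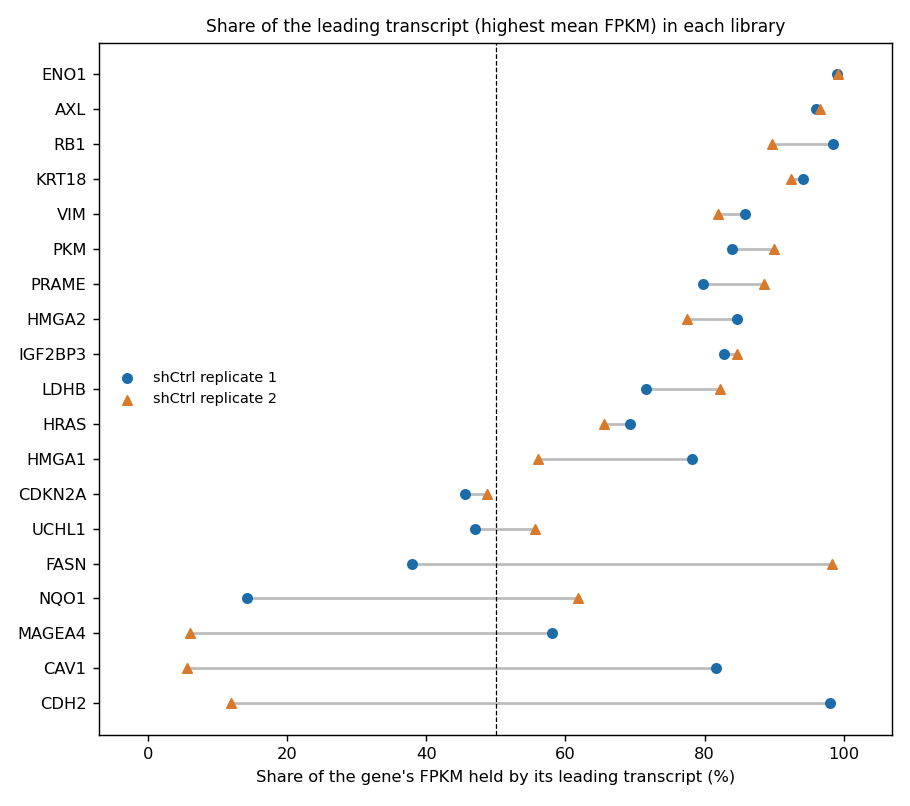
For 19 genes of the text, chosen with their values known, the x axis gives the percentage of the gene's FPKM held by the transcript with the highest mean; circles are shCtrl replicate 1, triangles replicate 2, and the dashed line marks 50%. ENO1 (99.1% and 99.2%) lies at the right in both libraries, while the transcript of CDH2 holds 98.1% in replicate 1 and 11.9% in replicate 2.

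The largest gene-level differences between the libraries, among genes with at least 100 counts in all, concerned genes with little in common. Among those lower in replicate 2 were NPB (4.05 and 0), PTGES3L-AARSD1 (13.3 and 0.245), PRDM13 (6.21 and 0.0733) and IRGQ (4.42 and 0.162). Higher were AMIGO3 (0.0012 and 2.53), CCSAP (0.0786 and 1.70), MED29 (3.07 and 21.1), DAG1 (3.03 and 18.2) and TGOLN2 (1.75 and 10.4). Of the 5 genes that differed most in each direction, 5 in all overlap another gene in the annotation, against 31.6% of the 10413 genes. Over all of these, 11.4% of overlapping and 10.7% of other genes differed by 1.5-fold or more. Genes with a single listed transcript differed by 1.5-fold or more in 6.49% of cases and genes with 5 or more transcripts in 13.1%.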

How the data were processed

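RNA-seq of mRNA libraries of H1299 cells was analysed in the 2 shCtrl libraries (biological replicates 1 and 2 by their labels). Estimated counts for each transcript were deposited by the authors as unnormalized whole numbers, with positions that match GRCh38, and FPKM per transcript in a file per library. No count of 0 came with an FPKM above 0, so small estimates seem to have been rounded up. The submitters' processing notes name CASAVA, Trimmomatic, HISAT2, bedtools, FastQC and GRCh38. Which tool counted, the annotation release and whether strand was used are not given in the sources used here. The other 2 count columns (shIGF2BP3) were not used.

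Values of 95139 transcripts were summed to 20263 genes. The deposited identifiers carry no symbols, so protein-coding RefSeq genes (GRCh38.p14) were matched by position. Each match had to be mutual and best, the overlap covering 0.5 or more of the joint length, 0.2 ahead of the next gene. This named 18222 genes. Of 1166 genes in 26 lists and 37 families written by hand, 31 had no name by this rule and are not reported, among them ALDOA, IGF2, FAS and SFTPC. Some further members are not reported here. A gene with 0 counts had 0 in every transcript listed for it. Reads of near-identical copies and overlapping genes can be split wrongly.

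The lists, families and thresholds were chosen with earlier results of these data known. No test was made, because there is 1 group of 2 libraries. Both values are given in place of an SD, in the order replicate 1 and replicate 2. Lists were described by counts and medians. Named genes were mostly the 10 highest and up to 10 of the lowest of each list, all members of lists under 25 genes and of families, the 20 highest nuclear genes, and the 5 genes in each direction that differed most between the libraries with at least 100 counts. Outside this rule, NRAS, ARAF, BRAF, AKT1, AKT2, HK1 and HK2 were also named. TWIST1, ZEB1, EPCAM, KRT19, ESRP1, PTPRC, ID2, TBP and IGF2BP3 transcripts, MT1X, COL6A1, COL6A2, GAGE12G, GPX1, PRDX2 and the genes shown with changing transcripts were chosen after their values were seen. Software was Python 3.11.15, pandas 2.3.3 and, for TMM factors in an alternative, edgeR 4.0.16. The steps were tested on simulated data.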

Additional observations from a re-analysis of the deposited data

How the results depend on the processing

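No paired analysis was possible because 1 group was described and no groups were compared. The 2 libraries limit precision more than depth does, a call of undetected covers only the transcripts listed, and levels of overlapping genes and near-identical copies cannot be told apart. The number of expressed genes ran from 8904 (threshold 2) to 11050 (TPM without mitochondrially encoded genes), and without replicate 1 or 2 from 10273 to 10436. Of 234 counts of list members recomputed, 232 stayed within 1.5 times. At the threshold of 2, alveolar type 1 genes fell to 3 and growth factors to 18. The share of the 20 highest nuclear genes was 8.78% by counts and 14.7% of a total without mitochondrially encoded genes. The share of genes differing 1.5-fold was 17.1% as TPM and 6.73% with a pseudocount of 1 in place of 0.1. Grouping by start was chosen after seeing the data. By counts in place of FPKM, where length is not corrected, leading members held 55.1% (PFKP), 74.9% (LDHB), 61.0% (SLC2A1), 71.2% (PYGB), 59.5% (SHMT2), 99.9% (MAT2A), 39.6% (BCAT2), 98.9% (SCD), 45.9% (ME3), 77.7% (CCND1), 96.4% (MYC), 31.4% (IGF2BP2), 34.0% (SMARCA2), 44.7% (RB1), 37.8% (ERBB2), 85.9% (FGFR1), 83.9% (EZH2), 52.4% (AKR1C2), 57.3% (KRT18) and 94.7% (TMSB10). Another member led by counts in 4 families. With 1 replicate left out, MYC held between 96.7% and 99.0%.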
